A study of Mus musculus with 12 samples.

Results

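The 10 genes described here encode inhibitors of Wnt signalling, several of which are known to be switched on by the pathway they restrain. They are Axin2 and Nkd1, which act inside the cell, Znrf3, Rnf43 and Apcdd1, which sit in the cell membrane, and Notum, Wif1, Sfrp1, Dkk2 and Dkk3, which are secreted. They were taken by symbol from the 19938 genes of the array that a probe set names on its own. All 10 were measured, each by 1 probe set, and no filter on low values was applied.

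Gene expression was measured on Affymetrix mouse arrays in biopsies of colon tumors from 6 mice, with the last (late) and the first (early) biopsy of 1 tumor in each mouse, 12 arrays in all. Every animal was an F1 (SWR x C57BL/6) hybrid carrying Apc Min/+, a germline mutation in 1 copy of Apc in all cells, and every animal had drunk 4% dextran sodium sulfate, which injures the colon lining, in 2 cycles around weaning, so that no group lacked the mutation or the injury. The 4 groups of 3 arrays were late biopsies of tumors read as intramucosal carcinoma (mice 2201, 3407 and 3413, mean age 227 ± 35.2 days, SD), late biopsies of tumors read as adenoma (mice 1755, 1803 and 1805, 333 ± 86.4 days), early biopsies of the carcinoma tumors (99.7 ± 15.5 days) and early biopsies of the adenoma tumors (89 ± 4.36 days). The pathology of the early biopsies is labelled unknown, and each was placed here by the late reading of the same mouse. The biopsies of a mouse were 172, 128 and 83 days apart in carcinoma mice 2201, 3407 and 3413, against 140, 282 and 309 days in adenoma mice 1755, 1803 and 1805, so that late adenoma biopsies came on average from older animals.

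Wnt ligands bind Frizzled and Lrp receptors at the cell surface and thereby stop a destruction complex, built around Apc and Axin, from degrading β-catenin, which then activates target genes with Tcf and Lef factors. Feedback inhibitors dampen the pathway at each of these levels, from the ligand to the destruction complex. In the intestine this signalling maintains the stem cells at the crypt base, and tumors that have lost Apc function keep β-catenin active and are known for high levels of feedback genes such as Axin2, Nkd1 and Notum.

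Promoter windows from RefSeq (GRCm38.p6, bases before the annotated start) were available for 5 of the 10 genes, as 6 windows because Rnf43 has 2. The sequences of Wif1 and Dkk2 are shown because these are the windows with the letters CTTTG, the core of the Tcf/Lef motif, which are in capitals. Both lie on the + strand and stop at the base before the first annotated base of the gene: Wif1 at chr10:121033754-121034003 and Dkk2 at chr3:132085042-132085265. The windows of Axin2 and Nkd1 lie inside the annotated span of these genes and are not shown.
Wif1: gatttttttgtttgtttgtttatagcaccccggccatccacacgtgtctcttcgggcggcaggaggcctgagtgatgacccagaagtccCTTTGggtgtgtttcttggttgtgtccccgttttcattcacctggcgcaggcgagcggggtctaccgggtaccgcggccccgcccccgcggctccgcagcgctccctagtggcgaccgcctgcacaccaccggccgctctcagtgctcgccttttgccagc
Dkk2: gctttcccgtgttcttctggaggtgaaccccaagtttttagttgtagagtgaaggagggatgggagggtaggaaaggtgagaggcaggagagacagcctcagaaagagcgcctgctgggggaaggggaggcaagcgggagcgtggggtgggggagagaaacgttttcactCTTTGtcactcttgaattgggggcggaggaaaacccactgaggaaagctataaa
The longer letters CTTTGAT, searched on both strands in 300 bases around the start, were in 0 of the 6 windows of the inhibitors and in 3.73% of 32851 RefSeq windows. The core CTTTG, which every CTTTGAT contains, was in 2 of the 6 windows, those of Wif1 and Dkk2, and in 53.9% of all windows. The 300-base window of Wif1 holds 63% G and C and that of Dkk2 57.7%, where the median of all windows was 52.7%. The window of Axin2 holds 70%, that of Nkd1 58.3% and the 2 of Rnf43 46.7% and 44.3%. The shorter printed stretches hold 62.8% in Wif1 and 54.5% in Dkk2. These matches are descriptions of letters in short windows.

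The values are the authors' log2 intensities as deposited, so a difference of 1 is a doubling of signal, and levels are compared only within a gene. Array medians lay between 7.62 and 7.80. The median correlation of an array with the others lay between 0.973, for the late biopsy of mouse 1805, and 0.988. The 10 epithelium markers, among them Epcam and Cdh1, averaged 11.76 to 12.99 over the arrays. The submitters' sample numbers were under 300 for the early biopsies of mice 1755, 1803, 1805 and 2201 and over 300 for the other 8. The 50 probe sets with the lowest identifiers averaged 7.08 to 7.19 on the first set of arrays and 6.80 to 6.94 on the second. All 3 adenoma pairs cross these number groups, so that in adenoma tumors the time of the biopsy and the number group cannot be told apart. The 3 late carcinoma and the 3 late adenoma biopsies were all numbered over 300. Nothing in the labels tells whether biopsies were handled on the same day. P-values measure a spread between these mice that the fits pool over both pathologies. With all mice, the late-early SE is thus the same in carcinoma and adenoma tumors. Yet the late-early differences of each inhibitor varied more between the adenoma mice, for Axin2 with an SD of 0.56 against 0.09 between the carcinoma mice. The adenoma SEs and p-values therefore draw on the narrower carcinoma spread.

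The first comparison was between the late and the early biopsy of the same tumor. In the adenoma tumors, 9 of the 10 inhibitors were lower in the late biopsy in all 3 mice, with Sfrp1 as the exception, where 22.4% of all 19938 genes were lower in all 3. In the carcinoma tumors 3 of the 10, Nkd1, Znrf3 and Apcdd1, were lower in all 3 mice, where 16.9% of all genes were. These 3 were therefore lower late in 6 of 6 mice, which held for 5.18% of all genes. The median late-early difference of the 10 was -0.59 in adenoma tumors and -0.07 in carcinoma tumors, where the median over all genes was -0.01 and -0.03. None of the 10 passed the adjusted threshold of 0.05 in limma with Benjamini-Hochberg adjustment over all genes in adenoma tumors, where 0.125% of all genes (25 genes) did, nor in carcinoma tumors, where 0% did. In tissue biopsies, fewer cells of a type and less RNA per cell cannot be told apart.

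**Figure D1:**
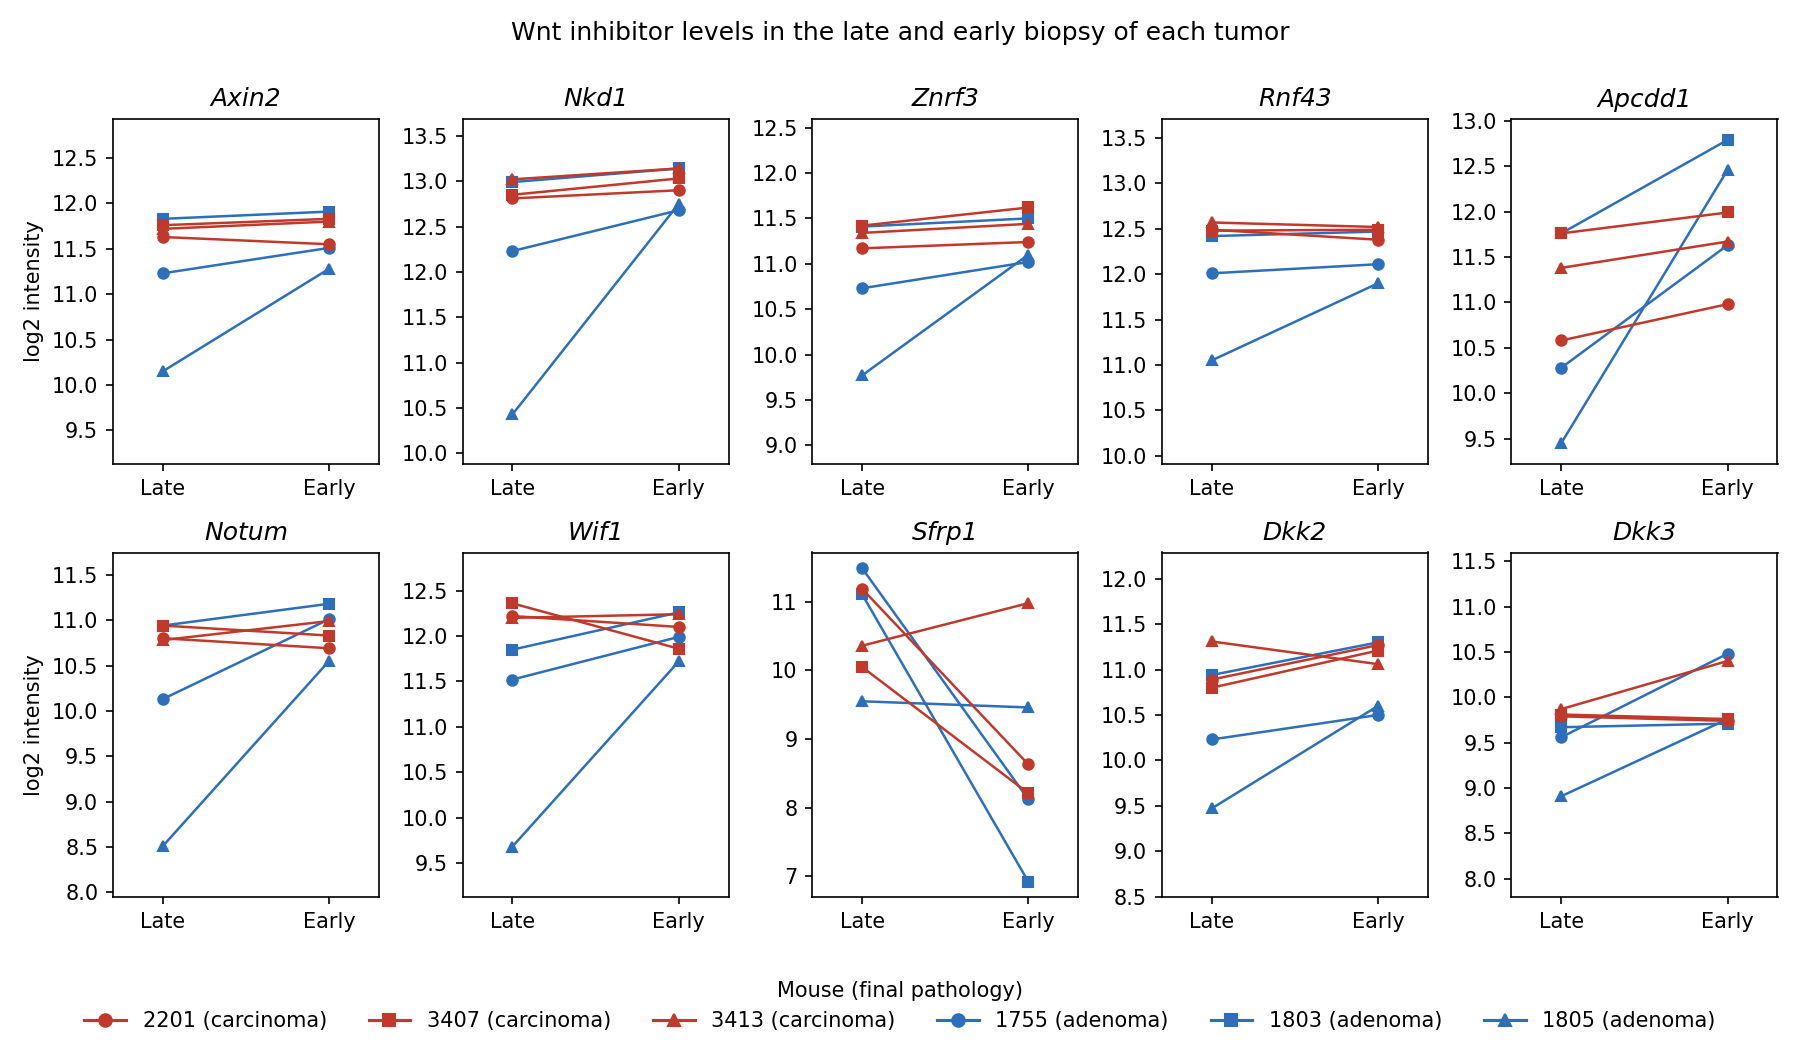
Log2 intensity (vertical axis, own range in each panel) of the 10 inhibitors in the late and the early biopsy of each tumor, 1 line per mouse, carcinoma in red and adenoma in blue. The late biopsy of adenoma mouse 1805 has the lowest late value for all 10 genes, and Sfrp1 is higher late than early in 5 of 6 mice.

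Axin2 is the inducible scaffold of the destruction complex. In the carcinoma tumors it read 11.63, 11.76 and 11.72 late against 11.55, 11.83 and 11.80 early in mice 2201, 3407 and 3413. In the adenoma tumors it read 11.23, 11.83 and 10.15 late against 11.51, 11.91 and 11.28 early in mice 1755, 1803 and 1805. The late and early ranges overlapped in both pathologies, and the late biopsy of mouse 1805 stood below all other arrays. The fitted late-early difference was -0.03 ± 0.19 in carcinoma tumors (SE, limma, adjusted p = 0.992) and -0.49 ± 0.19 in adenoma tumors (adjusted p = 0.245), or -0.18 ± 0.0995 (adjusted p = 0.468) without mouse 1805.

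Nkd1 binds Dishevelled, which relays the signal from the receptor to the destruction complex. Its levels in the carcinoma tumors were 12.81, 12.85 and 13.02 late against 12.90, 13.03 and 13.14 early. Its levels in the adenoma tumors were 12.23, 12.99 and 10.43 late against 12.68, 13.14 and 12.75 early. The late value was below the early value in every mouse, with differences of -0.45 to -0.10 in 5 mice and of -2.32 in mouse 1805, yet the ranges overlapped. The fitted difference was -0.13 ± 0.377 in carcinoma tumors (adjusted p = 0.975) and -0.98 ± 0.377 in adenoma tumors (adjusted p = 0.245). When mouse 1805 was left out, the adenoma value was -0.30 ± 0.104 (adjusted p = 0.277).

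Znrf3 and Rnf43 are related membrane ubiquitin ligases that remove Frizzled receptors from the cell surface and are themselves held in check by R-spondins. Znrf3 read 11.17, 11.42 and 11.34 late against 11.24, 11.62 and 11.44 early in the carcinoma tumors. Znrf3 read 10.73, 11.41 and 9.77 late against 11.02, 11.50 and 11.10 early in the adenoma tumors. All 6 late values were below their partners, with differences of -0.29 to -0.07 in 5 mice and of -1.33 in mouse 1805. Rnf43 read 12.49, 12.48 and 12.57 late against 12.38, 12.49 and 12.52 early in the carcinoma tumors. Rnf43 read 12.01, 12.42 and 11.05 late against 12.11, 12.47 and 11.90 early in the adenoma tumors. The late-early difference of Rnf43 lay between -0.10 and 0.11 in 5 of 6 mice and was -0.85 in mouse 1805. In adenoma tumors the fitted difference was -0.57 ± 0.221 for Znrf3 (adjusted p = 0.247) and -0.33 ± 0.156 for Rnf43 (adjusted p = 0.326). Both were nearer 0 without mouse 1805, at -0.19 ± 0.0966 for Znrf3 and -0.08 ± 0.0869 for Rnf43.

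Apcdd1, a membrane glycoprotein that binds Wnt ligands and their Lrp receptor, had the lowest fitted late-early difference of the 10 in each pathology. In the carcinoma tumors Apcdd1 read 10.58, 11.76 and 11.38 late against 10.98, 11.99 and 11.67 early. In the adenoma tumors Apcdd1 read 10.28, 11.76 and 9.45 late against 11.63, 12.79 and 12.46 early. Each late biopsy was below its early partner, with differences of -0.40, -0.23 and -0.29 in the carcinoma mice and of -1.35, -1.02 and -3.01 in the adenoma mice. The fitted difference was -0.31 ± 0.343 in carcinoma tumors (adjusted p = 0.953), with a 95% interval of -1.13 to 0.51. In adenoma tumors it was -1.80 ± 0.343 (interval -2.62 to -0.98, adjusted p = 0.093), a signal 3.47-fold lower late. Without mouse 1805 the adenoma difference was -1.19 ± 0.112 (adjusted p = 0.087), so the difference was also there in the other 2 adenoma mice. With the sample number group as a term it was -1.66 ± 0.879 (adjusted p = 0.845), a value in which the effect of the number group is estimated from the pair of carcinoma mouse 2201, the one other pair that crosses the groups.

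Notum is a secreted enzyme that strips the lipid from Wnt ligands and so inactivates them. In the carcinoma tumors Notum read 10.80, 10.94 and 10.78 late against 10.69, 10.83 and 10.99 early. Notum read 10.13, 10.94 and 8.51 late against 11.01, 11.18 and 10.55 early in the adenoma tumors. Late and early levels overlapped in carcinoma mice, and the late biopsies of mice 1755 and 1805 were below all 3 early adenoma biopsies. The fitted difference was 0.00 ± 0.302 in carcinoma tumors (adjusted p = 0.998) and -1.06 ± 0.302 in adenoma tumors (adjusted p = 0.158). Leaving out mouse 1805 gave an adenoma value of -0.56 ± 0.173 (adjusted p = 0.252).

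Wif1 is a secreted protein that binds Wnt ligands directly. In the carcinoma tumors Wif1 read 12.22, 12.36 and 12.20 late against 12.10, 11.86 and 12.24 early. In the adenoma tumors Wif1 read 11.52, 11.85 and 9.68 late against 11.99, 12.26 and 11.72 early. The late-early differences were 0.12, 0.51 and -0.05 in the carcinoma mice and -0.47, -0.41 and -2.05 in the adenoma mice. The fitted difference was 0.20 ± 0.313 in carcinoma tumors (adjusted p = 0.962) and -0.97 ± 0.313 in adenoma tumors (adjusted p = 0.194), or -0.44 ± 0.143 (adjusted p = 0.267) without mouse 1805.

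Sfrp1, a secreted protein with a Frizzled-like domain that binds Wnt ligands, was higher late in 5 of 6 mice. In the carcinoma tumors Sfrp1 read 11.19, 10.05 and 10.36 late against 8.63, 8.21 and 10.98 early. In the adenoma tumors Sfrp1 read 11.49, 11.11 and 9.55 late against 8.12, 6.92 and 9.46 early. The late signal was 5.91 and 3.59 times the early one in carcinoma mice 2201 and 3407 and 0.65 times in mouse 3413. In the adenoma mice 1755 and 1803 it was 10.4 and 18.2 times the early signal, and in mouse 1805 it was 1.06 times. The 3 late adenoma values lay above the 3 early ones, while late and early carcinoma values overlapped. How many of all genes had late adenoma values apart from the early ones was not counted. Over all 6 tumors the fitted difference was 1.91 ± 0.621 (adjusted p = 0.274), with 1.26 ± 0.867 in carcinoma tumors (adjusted p = 0.952) and 2.55 ± 0.867 in adenoma tumors (adjusted p = 0.209). Without mouse 1805 the adenoma value was 3.78 ± 0.706 (adjusted p = 0.155), and with the sample number group as a term, again resting on mouse 2201, it was 0.60 ± 2.03.

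Dkk2 and Dkk3 belong to the Dickkopf family, whose founding members block Lrp receptors. Dkk2 binds these receptors and can act either way depending on the cell, and Dkk3 is a divergent member whose role in the pathway is less settled. Dkk2 read 10.89, 10.80 and 11.31 late against 11.27, 11.21 and 11.06 early in the carcinoma tumors. Dkk2 read 10.23, 10.94 and 9.47 late against 10.50, 11.30 and 10.60 early in the adenoma tumors. It was lower late in 5 of 6 mice, with differences of -1.13 to -0.28, and higher by 0.25 in mouse 3413, and the ranges overlapped in both pathologies. Dkk3 read 9.79, 9.81 and 9.87 late against 9.74, 9.76 and 10.40 early in the carcinoma tumors. Dkk3 read 9.56, 9.67 and 8.91 late against 10.48, 9.71 and 9.76 early in the adenoma tumors. The 3 late adenoma values of Dkk3 were below the 3 early ones, although the pair of mouse 1803 differed by only -0.04. The share of all genes with such a separation was not counted. Over all tumors the fitted difference was -0.39 ± 0.151 for Dkk2 (adjusted p = 0.31) and -0.37 ± 0.155 for Dkk3 (adjusted p = 0.326). Without mouse 1805 that of Dkk2 was -0.24 ± 0.106 (adjusted p = 0.39).

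**Figure D2:**
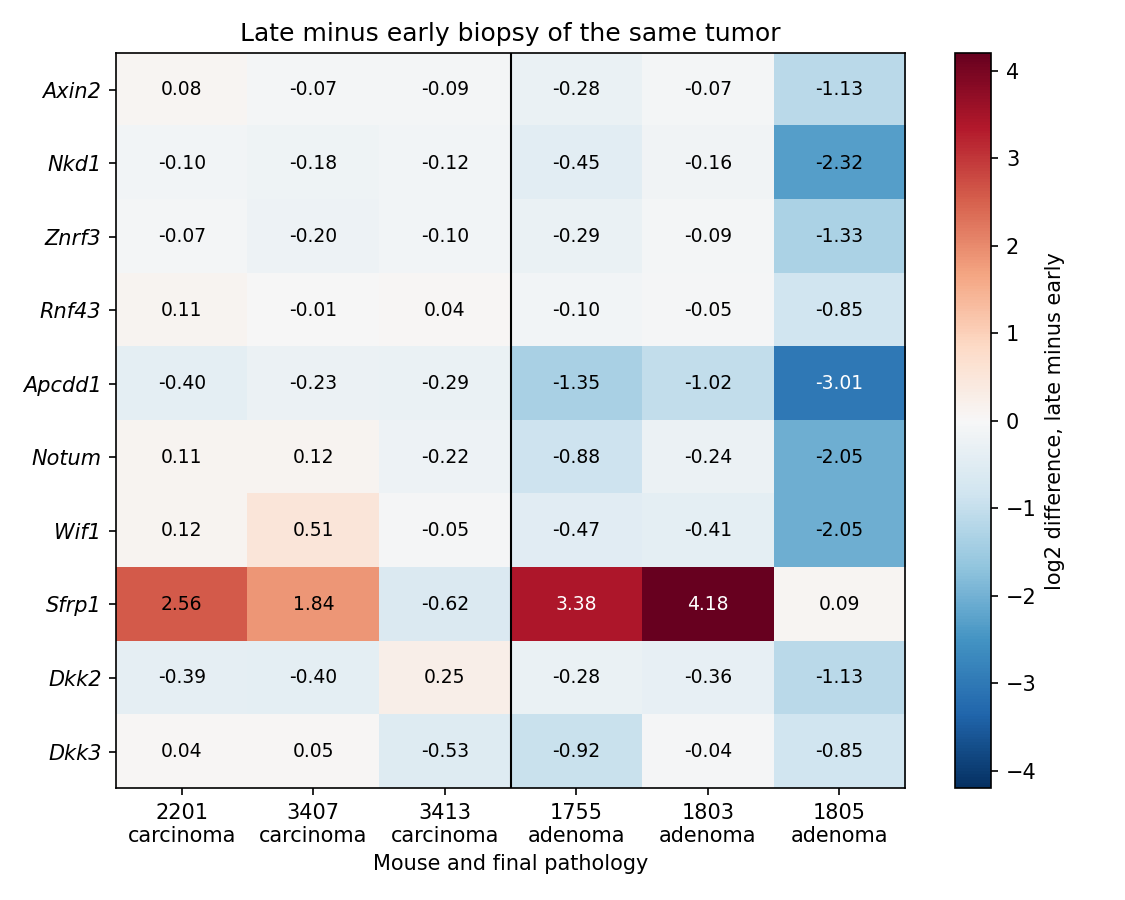
Late minus early log2 difference of each inhibitor (rows) in each mouse (columns, carcinoma left of adenoma), written in the cell and shown by color, blue for lower late. The adenoma columns are below 0 in every row but that of Sfrp1, and mouse 1805 has the lowest value in 8 of the 10 rows, all but those of Sfrp1 and Dkk3.

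Mouse 1805 had the lowest late-early difference of the 6 mice for 8 of the 10 genes, where it had the lowest for 22.8% of all genes. Excluding Sfrp1, the other 9 genes differed by -3.01 to -0.85 in this mouse. They differed by -1.35 to -0.10 in mouse 1755 and by -1.02 to -0.04 in mouse 1803. In the carcinoma mice the 9 genes differed by -0.40 to 0.12 in mouse 2201, by -0.40 to 0.51 in mouse 3407 and by -0.53 to 0.25 in mouse 3413. The pair of mouse 2201 crosses the sample number groups as the adenoma pairs do. Mouse 1805 also had the longest interval between biopsies, 309 days, and the oldest late biopsy, at 395 days.

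Over all 6 tumors, 4 of the 10 genes passed an unadjusted limma p of 0.05, namely Apcdd1, Sfrp1, Dkk2 and Dkk3, where 14.7% of all genes did. At the adjusted threshold 0 of 10 passed, as did 0% of all genes, among which the smallest adjusted p was 0.168. In adenoma tumors 9 of 10 passed the unadjusted threshold, all but Rnf43, against 18% of all genes, and 8 of them were lower late, against 10.7% of all genes. The count of 9 became 5 without mouse 1805, a setting for which the share of all genes was not counted. In carcinoma tumors 0 of 10 passed it, where 4.3% of all genes did. The 2 pathologies were then set against each other in their late-early differences. The carcinoma difference exceeded the adenoma difference by 1.49 ± 0.486 for Apcdd1 (interval 0.33 to 2.65), by 1.17 ± 0.443 for Wif1 and by 1.06 ± 0.427 for Notum. These 3 of the 10 passed the unadjusted threshold, where 7.04% of all genes did, and the adjusted p was 0.634 for Apcdd1, 0.698 for Wif1 and 0.708 for Notum. Without mouse 1805 these differences were 0.88 ± 0.145 for Apcdd1, 0.63 ± 0.184 for Wif1 and 0.57 ± 0.223 for Notum. At the adjusted threshold 0 of 10 and 0% of all genes passed. Among the 10, then, a difference between the pathologies in how the levels moved was not shown beyond the spread between mice.

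**Figure D3:**
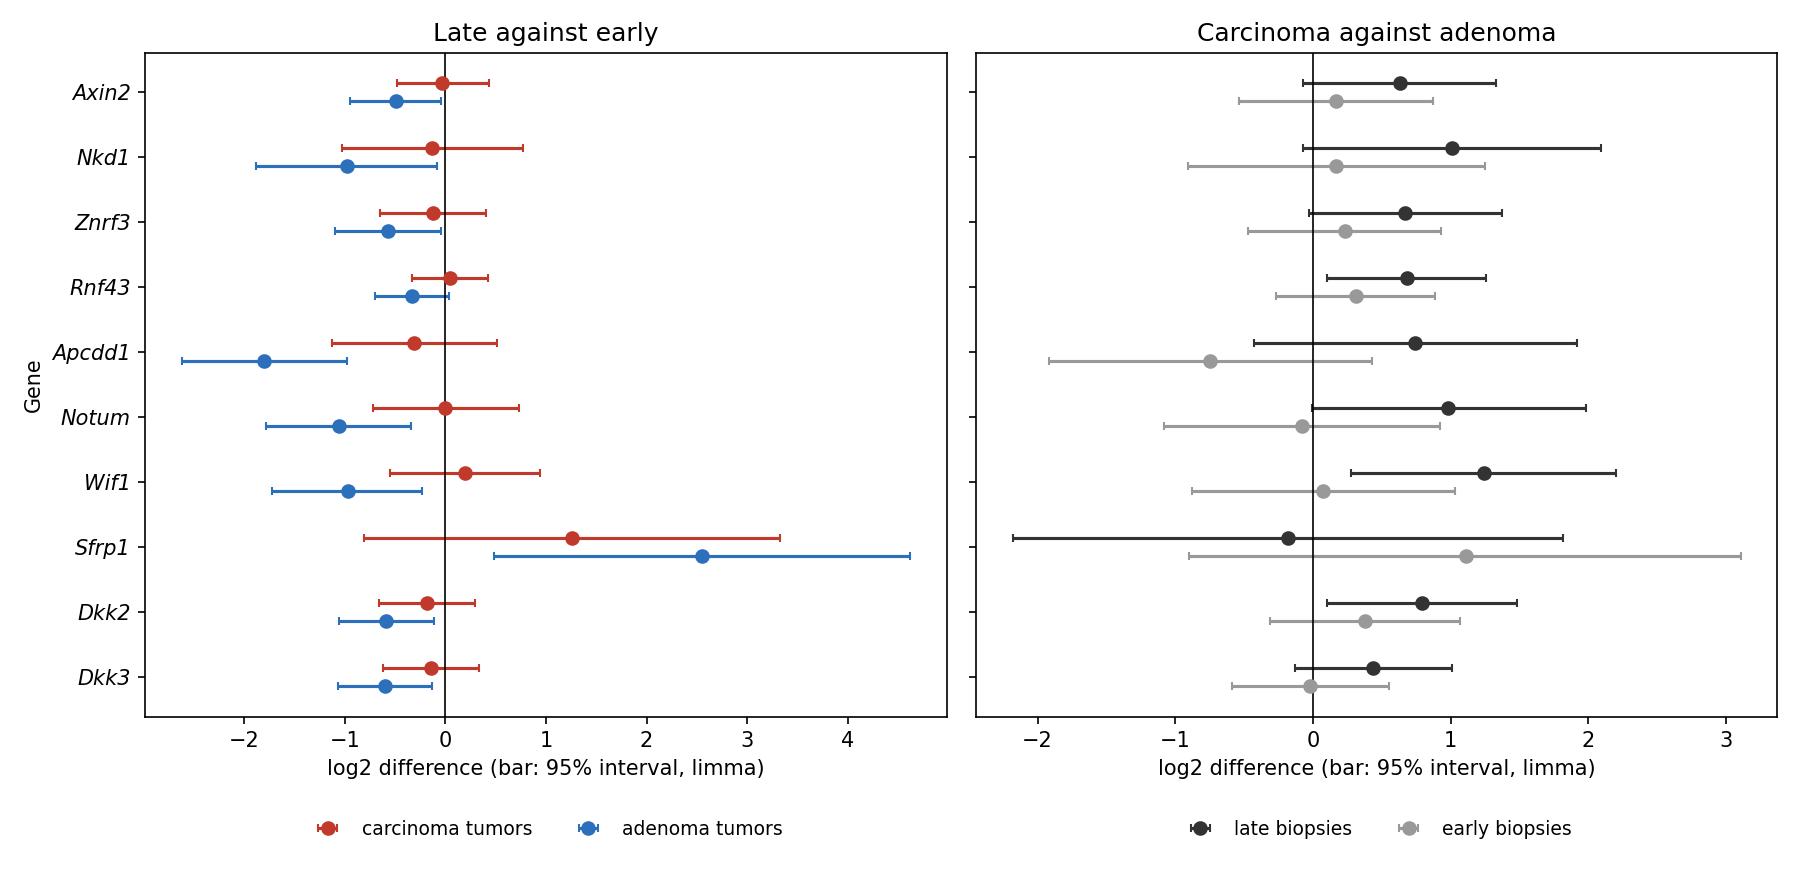
Fitted log2 differences with 95% intervals (limma) for each inhibitor. The left panel gives late minus early in carcinoma tumors (red) and in adenoma tumors (blue), and the right panel gives carcinoma minus adenoma in late biopsies (black) and in early biopsies (grey). In adenoma tumors the interval of Apcdd1, -2.62 to -0.98, lies farthest below 0, and that of Sfrp1, 0.48 to 4.62, is the one above it.

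The second comparison was between tumors read as carcinoma and tumors read as adenoma. In the late biopsies 9 of the 10 genes had a higher mean in carcinoma tumors, with Sfrp1 as the exception, as did 10804 of all 19938 genes. The median difference was 0.71 where that of all genes was 0.02. Rnf43, Wif1 and Dkk3 were higher in all 3 late carcinoma biopsies than in any late adenoma biopsy, as were 8.77% of all genes. Wif1 averaged 12.26 ± 0.09 in late carcinoma and 11.02 ± 1.17 in late adenoma biopsies (SD, n = 3 each), a fitted difference of 1.24 ± 0.433 (limma, adjusted p = 0.401). Rnf43 averaged 12.51 ± 0.05 in late carcinoma and 11.83 ± 0.70 in late adenoma biopsies, a difference of 0.68 ± 0.262 (adjusted p = 0.409). Dkk2 averaged 11.00 ± 0.27 in late carcinoma and 10.21 ± 0.73 in late adenoma biopsies, a difference of 0.79 ± 0.313 (adjusted p = 0.41). Wif1, Rnf43 and Dkk2 were the 3 of 10 that passed the unadjusted threshold, where 11.7% of all genes did, and 0 of 10 passed the adjusted one, where 0% did. Without mouse 1805 the difference was 0.57 ± 0.151 for Wif1 (adjusted p = 0.893), 0.30 ± 0.132 for Rnf43 and 0.42 ± 0.262 for Dkk2. In that setting 1 of the 10 passed the unadjusted threshold, and the share of all genes was not counted.

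In the early biopsies 0 of the 10 passed the unadjusted threshold between tumors later read as carcinoma and tumors later read as adenoma, where 12% of all genes did. The adjusted threshold was passed by 0 of 10 and by 0% of all genes. Axin2 averaged 11.73 ± 0.15 in the early biopsies of carcinoma tumors and 11.56 ± 0.32 in those of adenoma tumors, a difference of 0.17 with an interval of -0.54 to 0.87. Apcdd1 averaged 11.55 ± 0.52 and Sfrp1 9.27 ± 1.50 in the early biopsies of carcinoma tumors, against 12.29 ± 0.60 and 8.17 ± 1.27 in those of adenoma tumors. The intervals of these differences, -1.92 to 0.43 for Apcdd1 and -0.90 to 3.11 for Sfrp1, include 0. Early arrays of the 2 outcomes differ in sample number group, with 1 of 3 carcinoma arrays and 3 of 3 adenoma arrays under 300.

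Across the 4 groups the late adenoma biopsies had the lowest mean for 9 of the 10 genes and the widest spread for 8 of them. The share of all genes with either trait was not counted. For each of the 10 genes the late biopsy of mouse 1805 was the lowest late adenoma value, as for Axin2 with 10.15 beside 11.23 and 11.83. For Axin2 the means were 11.70 ± 0.07 in late carcinoma, 11.07 ± 0.85 in late adenoma, 11.73 ± 0.15 in early carcinoma and 11.56 ± 0.32 in early adenoma biopsies. In order of level, all neighbours lie within 1 SD of the wider group. For Apcdd1 the order was early adenoma, early carcinoma (11.55 ± 0.52), late carcinoma (11.24 ± 0.60) and late adenoma (10.50 ± 1.17), and the step between the 2 early groups was the only one above 1 SD of the wider group. For Sfrp1 the 2 late groups were highest, at 10.53 ± 0.59 in carcinoma and 10.72 ± 1.03 in adenoma biopsies, and the 2 early groups lower with wide spread.

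Levels of these genes were also followed across the arrays, after the mean of each time point was subtracted. Axin2, Nkd1, Znrf3, Rnf43, Notum and Wif1 varied together, with a Pearson r of 0.91 to 0.98 over 12 arrays in all 15 pairs. The range over 10 arrays without mouse 1805 was 0.62 to 0.96. Dkk2 correlated with these 6 genes at 0.83 to 0.94 (0.49 to 0.90 without mouse 1805) and Apcdd1 at 0.60 to 0.76 (0.49 to 0.85). Dkk3 correlated with the 8 genes other than Sfrp1 at 0.33 to 0.73, and at -0.26 to 0.36 without mouse 1805. Sfrp1 correlated with the other 9 at -0.10 to 0.44, and at -0.43 to 0.43 without mouse 1805. These correlations are descriptions: the points share mice, arrays and the mix of cells in a biopsy.

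**Figure D4:**
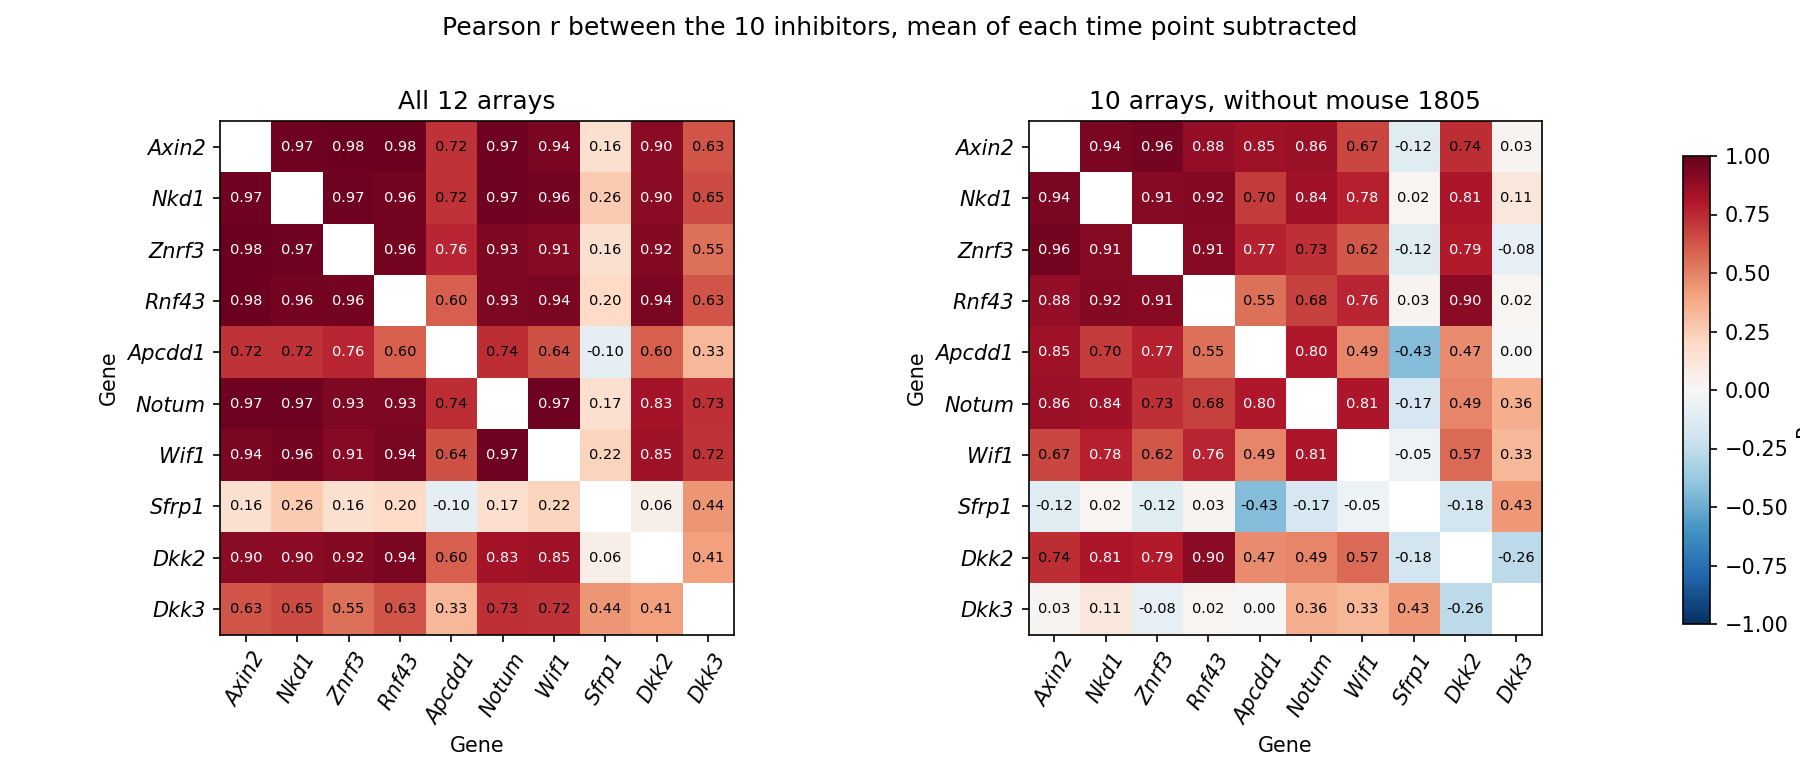
Pearson r between the levels of each pair of inhibitors (rows and columns) after subtraction of the mean of each time point, over all 12 arrays (left) and over the 10 arrays without mouse 1805 (right). The block of Axin2, Nkd1, Znrf3 and Rnf43 keeps values of 0.88 or more on the right, while Sfrp1 and Dkk3 stand apart from it.

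The genes most like each inhibitor by this measure were taken from 14061 genes. Prox1, a homeobox factor counted here among the Wnt targets, was among the 3 closest to Axin2 (r = 0.98), Nkd1 (0.98) and Znrf3 (0.99). Gtf2i, a general transcription factor, was among the 3 closest to Axin2, Znrf3 and Rnf43, each at 0.98. Notum was closest to the zinc transporter gene Slc30a2 (0.98), followed by Nkd1 and Axin2 (both 0.97), although Notum was not among the 3 closest to either of them. Apcdd1 was closest to Jakmip3 (0.97), Wif1 to Sbspon (0.98), Dkk2 to Txlng (0.98) and Dkk3 to Mettl8 (0.92). Sfrp1 was closest to Mfap4 (0.94), which encodes a microfibril-associated protein of the extracellular matrix, to Synpo2 (0.93), an actin-binding protein of muscle that is on the smooth muscle list used here, and to Ssc5d (0.93).

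Markers of other cells were set beside the levels of the inhibitors. In all correlations with marker lists the mean of each time point was not subtracted. A shift between early and late biopsies therefore enters these values. Over the 12 arrays Sfrp1 correlated with the mean level of the 12 fibroblast and matrix markers at 0.90, of the 9 endothelium markers at 0.84 and of the 10 smooth muscle markers at 0.82, and without mouse 1805 at 0.91, 0.90 and 0.88. The late-early difference of the smooth muscle list was 0.89, 0.12 and -0.65 in carcinoma mice 2201, 3407 and 3413 and 0.67, 1.17 and -0.36 in adenoma mice 1755, 1803 and 1805. Sfrp1 was thus higher late in all 4 mice in which smooth muscle markers were, and lower or nearly level in the other 2. The fibroblast and matrix list differed by 0.95, 0.33 and -0.55 in the carcinoma mice and by 0.95, 1.85 and 0.39 in the adenoma mice. All 12 of its genes had a higher fitted value late over all tumors, as did 8400 of all 19938 genes. At an unadjusted limma p of 0.05, 7 of the 12 were higher, as were 1133 of all genes, and 0 passed the adjusted threshold. The level of this list ranged over 10.73 to 10.83 in late carcinoma, 10.67 to 11.13 in late adenoma, 9.89 to 11.28 in early carcinoma and 9.28 to 10.28 in early adenoma biopsies. The smooth muscle list ranged over 9.18 to 9.41, 9.25 to 9.70, 8.52 to 9.83 and 8.53 to 9.61 in the same order of groups. The part of these cell types in the Sfrp1 values was not tested.

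For the co-varying inhibitors, values of epithelium, neutrophil and endothelium markers are given. Axin2, Nkd1, Znrf3, Rnf43, Notum and Wif1 correlated with the mean level of the epithelium markers at -0.80 to -0.62 over 12 arrays, lowest for Rnf43 and highest for Notum, and at -0.87 to -0.41 without mouse 1805. Epithelium marker levels ranged over 11.76 to 12.14 in late carcinoma, 12.18 to 12.99 in late adenoma, 11.95 to 12.43 in early carcinoma and 12.40 to 12.81 in early adenoma biopsies. In the late biopsies all 10 epithelium markers were lower in carcinoma tumors, as were 9134 of all 19938 genes. At an unadjusted limma p of 0.05, 6 of the 10 were lower, as were 997 of all genes, and 0 passed the adjusted threshold. The markers were led by Krt20, a keratin of differentiated surface cells, at -2.95 ± 0.833 (limma, adjusted p = 0.401). In mouse 1805, where the inhibitors were lowest, the epithelium list was higher late by 0.41 and had its highest level of the 12 arrays. The neutrophil list, which holds S100a8 and S100a9, was higher late by 1.31, 2.11 and 2.78 in adenoma mice 1755, 1803 and 1805, and differed by -0.73, 0.38 and 1.26 in carcinoma mice 2201, 3407 and 3413. It ranged over 8.14 to 9.08 in late carcinoma, 8.90 to 10.19 in late adenoma, 7.82 to 8.87 in early carcinoma and 6.80 to 7.64 in early adenoma biopsies. In adenoma tumors 7 of 7 neutrophil markers were higher late at an unadjusted p of 0.05, as were 1472 of all 19938 genes, and 0 of the 7 passed the adjusted threshold. The 6 inhibitors correlated with the neutrophil list at -0.69 to -0.43, and at -0.61 to -0.03 without mouse 1805, while Apcdd1 did at -0.76 (-0.55 without that mouse).

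The endothelium list was higher late by 1.34, 1.51 and 1.12 in adenoma mice 1755, 1803 and 1805, and differed by 1.25, 0.03 and -0.12 in carcinoma mice 2201, 3407 and 3413. In adenoma tumors all 9 of its genes had a higher fitted value late, with a median of 1.38, as did 9412 of all 19938 genes. At an unadjusted limma p of 0.05, 8 of the 9 were higher, as were 1472 of all genes, and 0 passed the adjusted threshold. In carcinoma tumors all 9 were higher as well, with a median of 0.40, as were 7933 of all genes. At the unadjusted threshold 0 of the 9 were higher, where 338 of all genes were. The level of the endothelium list ranged over 9.72 to 10.09 in late carcinoma, 9.91 to 10.17 in late adenoma, 8.84 to 10.11 in early carcinoma and 8.41 to 8.83 in early adenoma biopsies. Apcdd1 correlated with this list at -0.57 (-0.53 without mouse 1805), and the 6 co-varying inhibitors at -0.30 to -0.02. Without mouse 1805 these 6 ranged from -0.46 for Notum to 0.12 for Rnf43. The part of neutrophils, endothelium and differentiated epithelium in the inhibitor values was not tested.

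**Figure D5:**
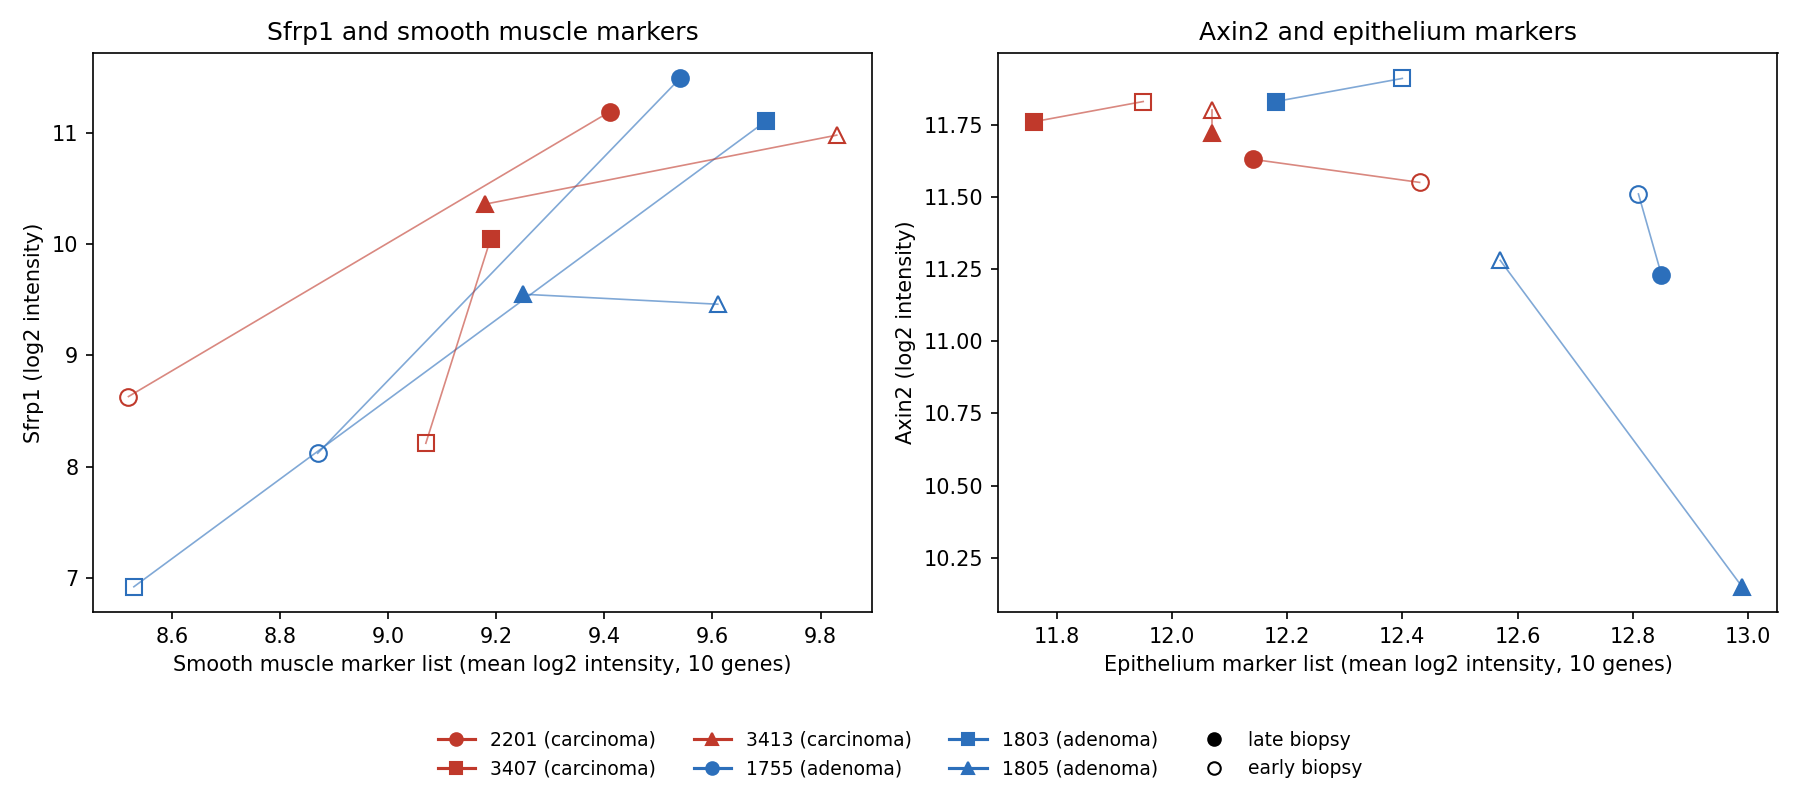
Sfrp1 level against the mean level of the 10 smooth muscle markers (left) and Axin2 level against the mean level of the 10 epithelium markers (right), all as log2 intensity, with late biopsies filled, early biopsies open, carcinoma in red, adenoma in blue and a line joining the biopsies of a mouse. Sfrp1 is high where smooth muscle markers are high (r = 0.82), and Axin2 is lowest, at 10.15, where epithelium markers are highest, at 12.99.

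The rest of the pathway was read from lists of other Wnt genes. Of 27 other Wnt antagonists, 4 were higher and 1 lower late over all tumors at an unadjusted limma p of 0.05. Of all 19938 genes 1133 were higher and 1807 lower. Among the 27, 0 passed the adjusted threshold, and the median difference was 0.00 on rounding. The smallest p among them was that of Nkd2, the paralog of Nkd1, which was higher late by 0.48 ± 0.0781 (limma, adjusted p = 0.206), by 0.53 ± 0.115 in carcinoma tumors and by 0.44 ± 0.115 in adenoma tumors. Nkd2 therefore differed in sign from Nkd1. In adenoma tumors 4 of the 27 were higher and 3 lower late at the unadjusted threshold, with 0 past the adjusted one. Of all genes 1472 were higher and 2125 (10.7%) lower. The median of the 27 was 0.06 where that of the 10 inhibitors was -0.59. Of 14 Wnt and R-spondin receptors, Fzd10, a Frizzled receptor, fell by 0.84 on the log2 scale in late adenoma biopsies (SE 0.0923, limma, adjusted p = 0.0491), the only gene on these lists past the adjusted threshold. No gene passed it when mouse 1755, 1803 or 1805 was left out or when the sample number group was a term. The 7 genes of the destruction complex had a median of -0.04 in adenoma tumors, and 0 of the 7 passed the unadjusted threshold in either pathology. Of all genes 18% passed it in adenoma tumors and 4.3% in carcinoma tumors. The 4 R-spondins, which protect Frizzled receptors from Znrf3 and Rnf43, differed late minus early by 0.01 to 0.18 in adenoma tumors.

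Of 15 other Wnt targets and effectors measured, 0 were higher and 4 lower in late adenoma biopsies at the unadjusted threshold. Of all 19938 genes 1472 were higher and 2125 lower, and 0 of the 15 passed the adjusted threshold. The 4 lower ones were the pseudoreceptor Bambi (-0.80 ± 0.14, limma, adjusted p = 0.0866), Tnfrsf19 (-0.97 ± 0.287), Lef1 (-0.72 ± 0.277) and Prox1 (-0.81 ± 0.321). Between the late biopsies 1344 of all genes were higher and 997 lower in carcinoma than in adenoma tumors at the unadjusted threshold. Of the 15, 2 were higher and 1 lower, and 0 passed the adjusted one. The difference was 1.46 ± 0.501 for the stem cell receptor Lgr5 (adjusted p = 0.401), 1.04 ± 0.462 for Prox1 (adjusted p = 0.424) and -0.58 ± 0.253 for Cdx1, a homeobox factor of intestinal epithelium (adjusted p = 0.421). Per mouse the mean level of the 15 differed late minus early by -0.03, 0.17 and -0.01 in carcinoma mice 2201, 3407 and 3413 and by -0.08, -0.03 and -0.54 in adenoma mice 1755, 1803 and 1805. Mouse 1805 was again the lowest.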

How the data were processed

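Biopsies of 6 colon tumors were measured on Affymetrix mouse arrays, 12 arrays in all. The authors deposited log2 intensities of 35557 probe sets, as their range shows. The labels state neither how these log2 values were summarised nor how they were normalised by the authors. A single gene symbol is assigned to 21789 of them, several to 1621 and none to 12147. Gene identifiers of 21698 matched a RefSeq table, which changed 0 symbols, and the brightest probe set per symbol left 19938 genes. Array number, not depth, limits the precision.

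Genes were tested with limma 3.58.1 in R 4.3.3 (moderated t, 2-sided, Benjamini-Hochberg over all genes). Late against early used mouse as a fixed block, and carcinoma against adenoma within a time point used mouse as a random block. The late-early differences by pathology came from 1 fit of all arrays, in which both pathologies share the estimate of the spread. The pairing comes from the animal: the arrays of a mouse correlated at 0.11 to 0.527 after the time point means were subtracted, and for 5 of 6 early arrays the late array of the same mouse was the closest. The ± after a mean is the SD over mice and after a fitted difference the SE. The fits were tested on simulated data.

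The 10 genes, the other gene lists and the comparisons were chosen with earlier results of these data known. The 10 are described throughout. Of each other Wnt list up to 4 genes with the smallest p could be named, of each inhibitor the 3 genes of highest correlation with a mean above the 25th percentile, without predicted genes, small RNAs and olfactory or vomeronasal receptors. Krt20 was picked after its values were seen. Alternatives were no block, each mouse left out, a filter on dim genes, quantile normalization, another prior, the mean of probe sets, the sample number group, age as the time scale and fits of 1 time point. Columns of samples left unused numbered 0.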

Additional observations from a re-analysis of the deposited data

Results flagged for a closer look

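For each of the 10 inhibitors the 6 late levels, the 6 early levels and the 6 late-early differences were searched for a value standing far from the other 5 relative to the whole range. Of these 30 sets of 6, 10 held such a value, and in all 10 it was the value of adenoma mouse 1805. The share of such sets over all genes was not counted. The late array of this mouse had the lowest median correlation with the others, 0.973, and the mouse had the lowest late-early difference for 22.8% of all genes. The sets are not independent, since the genes come from the same arrays and a late level also enters the late-early difference. In the late biopsies its log2 level was 10.15 for Axin2, 10.43 for Nkd1, 11.05 for Rnf43, 8.51 for Notum, 9.68 for Wif1 and 8.91 for Dkk3. The nearest other late level was 11.23 for Axin2, 12.23 for Nkd1, 12.01 for Rnf43, 10.13 for Notum, 11.52 for Wif1 and 9.56 for Dkk3. Its late-early difference was -1.13 for Axin2, -2.32 for Nkd1, -1.33 for Znrf3 and -0.85 for Rnf43, with the nearest other mouse at -0.28 for Axin2, -0.45 for Nkd1, -0.29 for Znrf3 and -0.10 for Rnf43. The early biopsy of mouse 1805 did not stand apart for any of the 10 genes.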

How the results depend on the processing

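None of the 10 inhibitors passed the adjusted threshold in any comparison or alternative; the lowest adjusted p was 0.05 on rounding, for Dkk2 in late biopsies without mouse 1803. In adenoma tumors the fitted late-early difference kept its sign in 120 of 120 values over genes and alternatives. Over all tumors 136 of 140 kept it: Rnf43 turned to 0.01 and Wif1 to 0.23 with the sample number group as a term. The pairs numbered over 300 gave the same differences, and each turn is counted in both settings. Both estimates rest on carcinoma mice 3407 and 3413 alone, without an adenoma pair, so they are not separate evidence. Sfrp1's difference between pathologies turned to 0.01 with the sample number term. These counts take the sign alone. The sign was kept in 115 of 120 values in carcinoma tumors, 117 of 120 in late biopsies and 124 of 130 in early biopsies. There, 0 of the values that turned had exceeded their SE in the original fit. The cause of the turns was not tested. Counts of inhibitors at an unadjusted p of 0.05 depended on the setting. The share of all genes at this threshold was not counted for the alternatives, so these counts describe the settings and not the inhibitors alone. Over all tumors the count of 4 became 2 without the mouse pairing (no replicate block), 0 with the sample number term, 1 in the pairs numbered over 300, 8 with age as the time scale, and 0 to 4 as each mouse was left out (0 without mouse 1755). In adenoma tumors the count of 9 became 4 without the pairing, 0 with the sample number term and 5 to 9 on leaving out mice. In carcinoma tumors the count of 0 became 0 to 1. The difference between pathologies gave 0 in place of 3 without the pairing, 0 with the number term and 0 to 5 on leaving out mice. In late biopsies the count of 3 became 0 with only those arrays and 1 to 8 on leaving out mice (8 without mouse 1803), and in early biopsies the count of 0 became 0 to 1. Of all genes, 25 were called in adenoma tumors, 2 without the pairing, 13 without dim genes, 0 with the number term and 0 to 78 on leaving out mice. Over all tumors 33 genes were called with age and 0 to 2 on leaving out mice. Leaving out mice gave 0 to 1 calls in carcinoma tumors, 0 to 395 in late and 0 to 67 in early biopsies. With age, the slope per 100 days was -0.62 ± 0.123 for Apcdd1 (SE, limma, adjusted p = 0.0793). With 3 mice per pathology and unstated normalization, differences smaller than the intervals given cannot be resolved.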
